A study of Mus musculus with 12 samples.

Results

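DNA replication in eukaryotes is carried out by a set of complexes that act in sequence. The origin recognition complex marks start sites, Cdc6 and Cdt1 load the MCM2-7 helicase onto them, Cdc45 and GINS switch the helicase on, polymerase α-primase lays down primers, and polymerases δ and ε copy the template while held by the sliding clamp PCNA. Ligases, single-strand binding proteins, histone chaperones and fork protection factors complete the work. Their genes are known as targets of E2F transcription factors and are expressed most strongly around the start of S phase, so that dividing lymphoid progenitors and the leukemias derived from them carry high levels of them. Transcript levels of 47 genes of this machinery were examined in mouse B cell acute lymphoblastic leukemia (B-ALL) cells after inhibition of the kinase GSK3β. The genes were chosen by name, as subunits and regulators of the replication complexes, and required to have a mean of at least 3 on the deposited log2 scale. All 47 met this limit, out of 41444 genes in the table and 11536 that met the limit.

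The cells were pre-B cells from bone marrow with the genotype Ctnnb1 fl/fl, meaning that each allele for β-catenin is flanked by target sites of Cre recombinase. They were cultured with interleukin 7, transformed by a retrovirus carrying BCR-ABL1, the fusion oncogene of Philadelphia chromosome-positive leukemia, and given an ERT2 vector without Cre, so that β-catenin stayed intact. Cells of both groups received 1 µM 4-OHT, the active metabolite of tamoxifen, over 2 days. The 3 control samples (ERT2) received nothing further, and the 3 treated samples (ERT2 + LY2090314) also received 40 nM LY2090314, a small-molecule inhibitor of GSK3, for 1 day according to the labels, whereas the text of the study gives a shorter exposure. The study describes the replicates of each group as separate mice, while the sample labels do not give their origin, so p-values measure the spread between these samples. The column names of 2 treated samples open with the same number, followed by other letters that include A and B. What this opening number, called the column number below, stands for is not given. Whether these 2 samples share a source is therefore unknown. Values are regularized log2 (rlog) values of poly(A) RNA, in which a difference of 1 is a change by a factor of 2 and in which genes with few reads are drawn towards their mean. No read counts were used, so library depth is unknown.

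All 11 pre-B cell markers examined, among them Cd79a, Cd79b and Ebf1, met the expression limit in this table. Their summed level on the linear scale was 81614 to 82970 in the control samples and 53809 to 59407 in the treated samples, and 9 of the 11 were lower and 1 was higher after treatment. Of the T cell markers 2 of 8 met the limit, and both were higher in the treated samples, with a summed level of 234 to 311 in the controls and 758 to 844 after treatment, while Cd3e, Cd3d, Cd3g, Cd4 and Cd8a were at or below 0 in every sample. The myeloid list also had 2 of 9 members above the limit, Lyz2 and Ly6g, both higher, with sums of 70.5 to 79.7 and 172 to 179, and Mpo, Elane, Csf3r, Adgre1 and S100a8 at or below 0. In the erythroid list 1 of 6 markers met the limit and was lower, and in the stromal list 0 of 6 did. Markers were called lower or higher at a limma adjusted p under 0.05. By that rule 25.3% of all 11536 genes tested were lower and 24.8% were higher. The part of these shifts in the results on replication genes was not tested. In bulk RNA a smaller share of cells in S phase and less of a transcript in each cell cannot be told apart.

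LY2090314 was accompanied by lower transcript levels across nearly the whole replication machinery. Of the 47 genes, 41 were lower in treated cells, 1 was higher and 5 did not pass the test (limma, Benjamini-Hochberg adjusted p under 0.05 over all 11536 genes). The background was high, since 25.3% of all genes tested were lower and 24.8% were higher by the same rule. The share of replication genes that were lower was 87.2%. In 42 of the 47 genes every treated sample lay below every control sample, against 29.5% of all genes, and in 1 gene every treated sample lay above, against 29.1% of all genes. The median difference was −0.37, or 77.6% of the control level, whereas the median over all genes was 0.01.

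The falls were moderate in size and narrow in range. Differences ran from −0.76 for Lig1 to 0.26 for Orc5, and 38 of the 47 genes lay between −0.70 and −0.20. None changed by 1 or more, a size that 693 of the genes tested reached in either direction while also passing the test. The median absolute difference was 0.37 for the replication genes and 0.24 for all genes. Control samples differed little among themselves, with a median SD of 0.0496 over the 47 genes, and treated samples had a median SD of 0.0547. Relative to the control mean, the median replication gene was at −0.02, −0.02 and 0.03 in the 3 control samples and at −0.42, −0.38 and −0.34 in the 3 treated samples, and the median over all genes stayed within 0.0121 of zero in each of the 6.

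**Figure D1:**
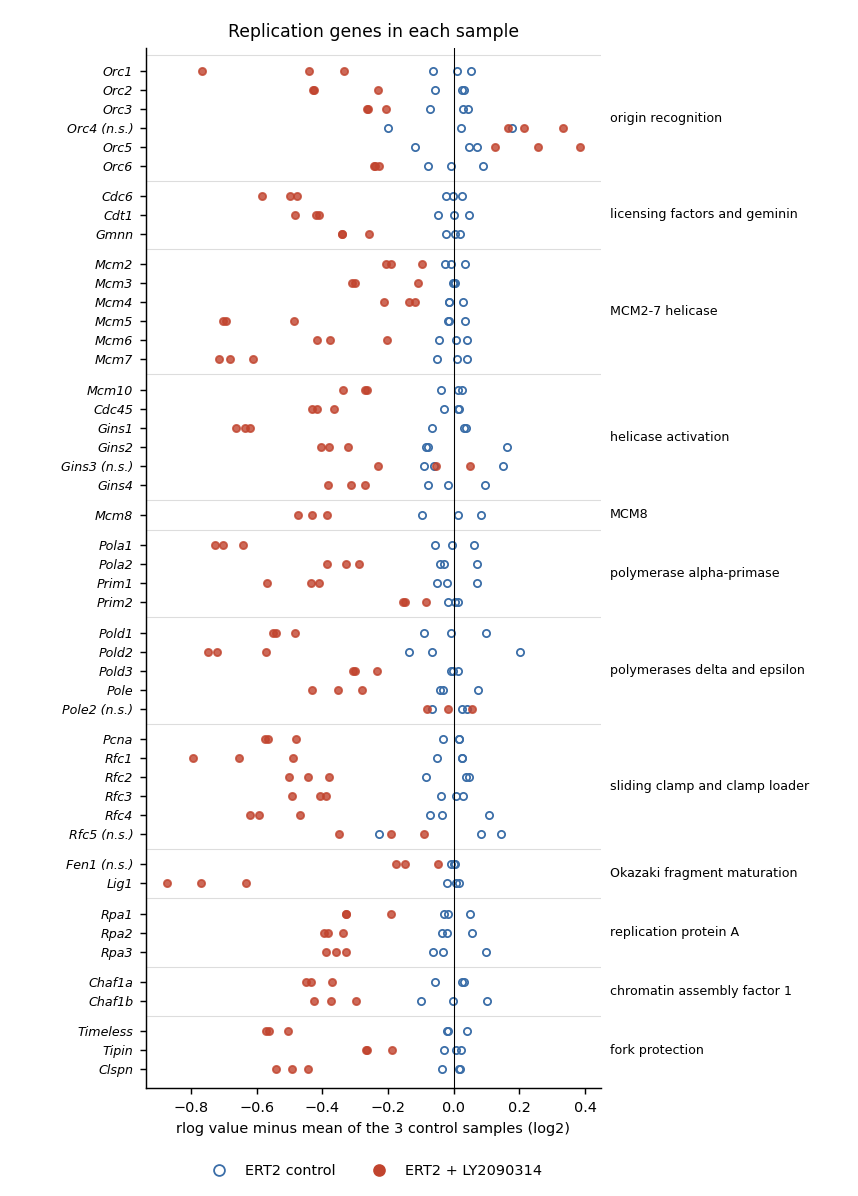
Levels of the 47 replication genes in each sample, as the rlog value minus the mean of the 3 control samples (log2, horizontal axis), with genes grouped by role on the vertical axis. Open circles are the 3 ERT2 control samples, filled circles the 3 samples with LY2090314, and n.s. marks the 5 genes that did not pass the test. Filled circles lie left of all open circles in 42 of the 47 rows, and right of them only in the row of Orc5.

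Short stretches upstream of a few of these genes are shown because they carry the words by which E2F factors recognize DNA, a feature that many replication genes share and that the choice of genes did not use. RefSeq promoter windows (GRCm38.p6) run from 250 bases before to 50 bases after an annotated start, and words at other starts of a gene were not counted. The windows used, the first listed for each gene, were held for 38 of the 47 genes. They were searched on both strands for TTTGGCGC, TTTCCCGC, TTTGCCGC and TTTCGCGC, overlapping matches included. At least 1 of these words stood in 16 of the 38 windows (42.1%), in 381 of 8681 windows of all genes tested (4.39%) and in 626 of 27025 windows of all genes (2.32%). The stretches of Mcm5, Mcm6, Orc3 and Pola1 lie upstream of the gene, and that of Cdc6 lies in the first part of the gene outside its exons, by the GENCODE vM21 annotation. Each is written 5′ to 3′ on the strand of the gene, with the E2F words in capitals.
Mcm5, chr8:75109330-75109389, plus strand: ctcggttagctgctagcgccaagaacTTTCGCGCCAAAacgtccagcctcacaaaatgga
Mcm6, chr1:128359782-128359841, minus strand: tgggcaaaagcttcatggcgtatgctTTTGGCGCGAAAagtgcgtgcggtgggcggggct
Orc3, chr4:34614950-34615009, minus strand: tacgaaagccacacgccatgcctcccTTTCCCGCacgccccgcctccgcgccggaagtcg
Pola1, chrX:93632260-93632319, minus strand: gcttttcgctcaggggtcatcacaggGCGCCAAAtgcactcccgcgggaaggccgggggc
Cdc6, chr11:98907987-98908046, plus strand: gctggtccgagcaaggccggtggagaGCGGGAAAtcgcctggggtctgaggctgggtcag
In Mcm5 and Mcm6 a pair of overlapping words, 1 on each strand, forms a run of 12 bases, and the other stretches hold a single word each.

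Falls were seen with and without an E2F word. The 16 genes with a word had a median difference of −0.43 and 14 of them were lower, and the 22 genes without one had a median of −0.36 with 18 lower. The difference between them was not tested. Gins3 and Pole2 hold a word and did not pass the test, while Lig1, Pold2 and Rfc1, among the largest falls, hold none in this window. The window of Timeless, counted as without a word, lies inside the gene by GENCODE vM21, so its first promoter was not searched. The E-box CACGTG, the word of Myc and related factors, stood in 6 of the 38 windows (15.8%) against 10.7% of windows of all genes tested. The CHR words TTTGAA and TTCGAA, known from genes of late cell cycle, stood in 6 windows (15.8%) against 14.5%. These matches describe letters in a window and were not linked to binding.

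Origin recognition was the one group with a call in each direction. The 6 subunits of the origin recognition complex bind origins and serve as the platform for helicase loading, and Orc1 is the subunit whose level is regulated through the cell cycle. Here 4 were lower, 1 was higher and 1 did not pass the test, with a median difference of −0.24. By the same rule 25.3% of all genes were lower and 24.8% were higher. Orc1 had control values of 9.09, 9.21 and 9.17 and treated values of 8.82, 8.72 and 8.39, a difference of −0.51 (SE 0.111, limma adjusted p = 0.00604). Its groups did not overlap, although the treated samples spread more widely than the controls. Orc2, Orc3 and Orc6 were also lower, with differences of −0.36, −0.24 and −0.24.

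Orc5 (ENSMUSG00000029012, GRCm38 chr5:22486485-22550429, minus strand), an ATPase-fold subunit of the same complex, was the only replication gene called higher. Its values were 8.73, 8.56 and 8.75 in the control samples and 9.07, 8.81 and 8.94 in the treated samples, without overlap, and the difference was 0.26 (SE 0.0883, limma adjusted p = 0.0427). The call was lost with quantile normalization (limma adjusted p = 0.07) with centring on the sample median (limma adjusted p = 0.0627) and without a lower limit on the mean (limma adjusted p = 0.0871), and also when any sample other than the second treated one was left out (limma adjusted p from 0.0519 to 0.144). Orc4, with 9.22, 9.37 and 8.99 in the controls and 9.53, 9.36 and 9.41 after treatment, had a difference of 0.24 (SE 0.1) that did not pass the test (limma adjusted p = 0.0818), and its groups overlapped. Without the second control sample it did pass, at 0.33 (limma adjusted p = 0.0319). Exons of Orc1, Orc2, Orc4 and Orc6 share bases with genes on the opposite strand, and the strand setting of the quantification was not given in the sources used here.

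Licensing factors fell together. Cdc6, the ATPase that works with the origin recognition complex in helicase loading, went from 10.54, 10.51 and 10.49 to 10.03, 10.01 and 9.93, a difference of −0.52 (SE 0.0498, limma adjusted p = 9.14e-05). Cdt1, the chaperone of the MCM2-7 ring, fell from 10.56, 10.61 and 10.65 to 10.12, 10.19 and 10.20, a difference of −0.44. Gmnn, which encodes geminin, the inhibitor of Cdt1, was lower with a difference of −0.31. In each of these genes every treated sample lay below every control sample, as in 29.5% of all genes. Both the loader and its inhibitor were thus lower.

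All 6 subunits of the MCM2-7 helicase, the ring that unwinds the template, were lower, but by unequal amounts. The differences ran from −0.67 to −0.16 with a median of −0.29. Mcm7 (ENSMUSG00000029730, GRCm38 chr5:138164583-138172422, minus strand) fell most, from 13.45, 13.51 and 13.54 to 12.82, 12.78 and 12.89, a difference of −0.67 (SE 0.0534, limma adjusted p = 3.34e-05). Mcm5 (ENSMUSG00000005410, GRCm38 chr8:75109569-75128439, plus strand) fell from 11.08, 11.08 and 11.13 to 10.40, 10.39 and 10.61, a difference of −0.63 (SE 0.0665, limma adjusted p = 0.000154). The differences of the other subunits were −0.33 for Mcm6, −0.24 for Mcm3, −0.16 for Mcm2 and −0.16 for Mcm4. Treated values of Mcm2 were 12.90, 12.89 and 13.00 and those of Mcm4 were 12.60, 12.68 and 12.70, close below control values of 13.07, 13.08 and 13.13 and of 12.84, 12.80 and 12.80. The calls for Mcm2 and Mcm4 were lost when any sample other than the third treated one was left out. They were also lost without the mean-variance trend of the fit (limma adjusted p = 0.0514 and 0.0537) and with the treated samples of 1 column number joined. Over these settings limma adjusted p was up to 0.117 and 0.108. The call for Mcm3 was lost without the second control, the first treated or the second treated sample and with the joined samples. Its limma adjusted p was up to 0.0694. Mcm7 shares exon bases with Cops6 on the opposite strand, itself at −0.42, and with Ap4m1.

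**Figure D2:**
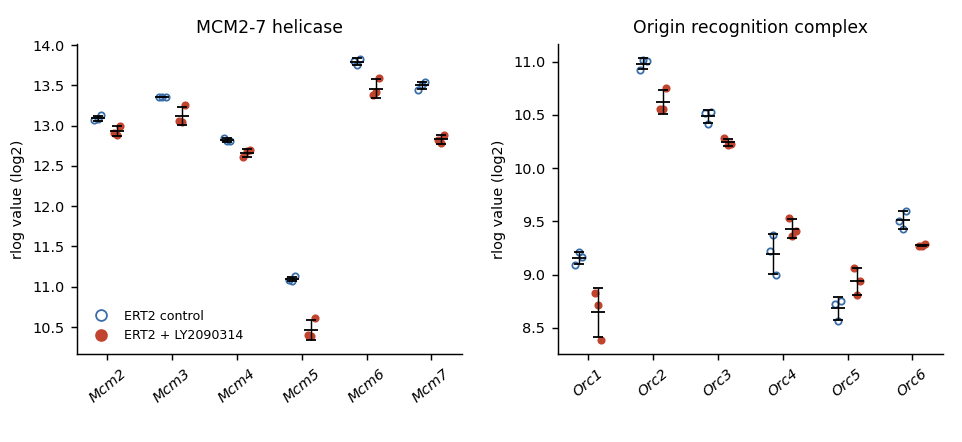
rlog values (log2, vertical axis) of the 6 MCM2-7 subunits (left) and the 6 subunits of the origin recognition complex (right). Open circles are the 3 ERT2 control samples, filled circles the 3 samples with LY2090314, and bars give the mean and SD of each group. Mcm5 and Mcm7 show the widest gaps on the left, and Orc4 and Orc5 are the 2 genes on the right with a higher treated mean.

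The factors that turn the loaded ring into an active helicase showed 5 of 6 genes lower, with a median of −0.34. Gins1 (ENSMUSG00000027454, GRCm38 chr2:150905400-150931280, plus strand), a subunit of the GINS tetramer that joins Cdc45 and the ring, went from 9.16, 9.26 and 9.26 to 8.59, 8.56 and 8.60, a difference of −0.64 (SE 0.0602, limma adjusted p = 8.3e-05). Gins2 and Gins4, from the same tetramer, were lower, with differences of −0.37 and −0.32. Gins3 was the exception, with 8.54, 8.75 and 8.51 in the control samples, 8.65, 8.55 and 8.37 in the treated samples and a difference of −0.08 (95% interval −0.31 to 0.15, limma adjusted p = 0.539). This subunit of GINS therefore overlapped between groups. In the other 3 every treated sample lay below every control sample, as in 29.5% of all genes. Cdc45, the partner of the ring, had a difference of −0.40, and Mcm10, needed for origin firing, one of −0.29. Of the exon bases of Gins2, 2758 of 4097 are shared with Gse1 on the opposite strand, a gene that was higher by 0.73, and Cdc45 shares bases with Ufd1, which was higher by 0.26. Mcm8, a relative of the MCM2-7 subunits that acts in recombination repair, was lower with a difference of −0.43.

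Polymerase α-primase, which starts every new strand, was lower in all 4 subunits. Pola1 (ENSMUSG00000006678, GRCm38 chrX:93304767-93632155, minus strand), the catalytic subunit, had control values of 12.23, 12.16 and 12.11 and treated values of 11.44, 11.52 and 11.46, a difference of −0.69 (SE 0.0503, limma adjusted p = 1.99e-05). Every treated sample lay far below the lowest control. Prim1, the catalytic primase subunit, had a difference of −0.47 and Pola2, which links the polymerase to the primase, one of −0.33. Prim2, the large primase subunit, had the smallest called fall of the 47 genes at −0.13 (limma adjusted p = 0.0488). This call was lost when any sample other than the third treated one was left out (limma adjusted p of up to 0.141). It was also lost without the mean-variance trend (limma adjusted p = 0.0832) and with quantile normalization (limma adjusted p = 0.0593). Joining the treated samples of 1 column number lost it too (limma adjusted p = 0.133).

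In the polymerases that extend the strands, the catalytic subunits of both enzymes were lower. Pold1, the catalytic subunit of polymerase δ, had a difference of −0.52 and Pole, that of polymerase ε, one of −0.35. Pold2 (ENSMUSG00000020471, GRCm38 chr11:5872180-5878292, minus strand), an accessory subunit of polymerase δ, went from 10.84, 10.90 and 11.17 to 10.25, 10.22 and 10.40, a difference of −0.68 (SE 0.0936, limma adjusted p = 0.000622). Pold3, another accessory subunit, was lower with a difference of −0.28. Pole2, the B subunit of polymerase ε, showed the least difference of all 47 genes, with 9.04, 9.13 and 9.15 in the controls, 9.03, 9.16 and 9.09 after treatment and a difference of −0.01 (95% interval −0.16 to 0.13, limma adjusted p = 0.876). Of the exon bases of Pole2, 245 of 2881 are shared with Gm49384, a protein-coding gene on the same strand without values here. Whether reads were shared was not tested.

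In the sliding clamp and its loader 5 of 6 genes were lower, with a median of −0.49. Pcna, the clamp that tethers polymerases, was among the most abundant of these transcripts in the table and went from 13.62, 13.57 and 13.62 to 13.04, 13.03 and 13.12, a difference of −0.54 (SE 0.0517, limma adjusted p = 9.16e-05). Since processed copies of Pcna exist in the genome, reads could be shared with them. Rfc1 (ENSMUSG00000029191, GRCm38 chr5:65261850-65335670, minus strand), the large subunit of the clamp loader replication factor C, fell from 10.73, 10.81 and 10.81 to 10.29, 10.13 and 9.99, a difference of −0.65 (SE 0.0779, limma adjusted p = 0.000305). Rfc4 (ENSMUSG00000022881, GRCm38 chr16:23113943-23127737, minus strand), one of its small subunits, fell from 10.49, 10.46 and 10.64 to 9.94, 9.91 and 10.06, a difference of −0.56 (SE 0.067, limma adjusted p = 0.000292). The small subunits Rfc2 and Rfc3 were lower, with differences of −0.44 and −0.43. Rfc5, the remaining small subunit, had control values of 10.66, 11.03 and 10.97 and treated values of 10.54, 10.70 and 10.80, and its difference of −0.21 (SE 0.107) did not pass the test (limma adjusted p = 0.138). Without the first control sample, which lay below the other two, it passed at −0.33 (limma adjusted p = 0.0192). Rfc5 shares exon bases with Wsb2 on the opposite strand, which was higher by 0.80. Rfc2 and Rfc4 share exon bases with Lat2 and Eif4a2 on the opposite strand, neither of which passed the test.

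Okazaki fragment maturation held both the largest fall and one of the 3 smallest differences. Lig1 (ENSMUSG00000056394, GRCm38 chr7:13277283-13311433, plus strand), the DNA ligase that seals lagging strand fragments, went from 12.98, 12.95 and 12.99 to 12.10, 12.21 and 12.34. The difference was −0.76 (SE 0.066, limma adjusted p = 5.44e-05), which leaves 59.1% of the control level. The control samples lay within a narrow band and every treated sample was far below it. Fen1, the flap endonuclease that prepares the same fragments for ligation, had control values of 11.71, 11.70 and 11.71 and treated values of 11.53, 11.56 and 11.66. Its groups did not overlap, but the difference of −0.12 (SE 0.0485) did not pass the test (limma adjusted p = 0.0648), and it passed with quantile normalization (limma adjusted p = 0.0328), with centring (limma adjusted p = 0.0493) and without the third treated sample, at −0.16 (limma adjusted p = 0.0124). Of the exon bases of Fen1, 1909 of 2422 are shared with Gm10143, an antisense gene under the expression limit. Lig1 shares 247 of 4268 with Zswim9 on the opposite strand, which was lower with a difference of −0.26.

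Proteins that cover, package and protect the new DNA were lower throughout. The replication protein A subunits Rpa1, Rpa2 and Rpa3, which coat single-stranded DNA, had differences of −0.28, −0.37 and −0.36. Chaf1a and Chaf1b of chromatin assembly factor 1, which deposits histones behind the fork, had differences of −0.42 and −0.37. Of the exon bases of Chaf1a, 4648 of 8854 are shared with Ubxn6 on the opposite strand, whose difference of 0.02 did not pass the test. Timeless fell from 10.94, 11.00 and 10.94 to 10.45, 10.39 and 10.40, a difference of −0.55 (SE 0.0459, limma adjusted p = 4.46e-05). Its partner in the fork protection complex, Tipin, had a difference of −0.24, and Clspn, the claspin adaptor of checkpoint signaling, one of −0.49. In each of these 8 genes every treated sample lay below every control sample, a pattern that 29.5% of all genes shared.

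Within a complex the differences covered a narrower or wider range, given here as a description without a test. From the largest fall to the smallest difference or the rise, the range was 0.77 in the origin recognition complex, 0.56 in polymerase α-primase, 0.56 in GINS and 0.51 in MCM2-7. It was 0.43 in replication factor C, 0.40 in polymerase δ and 0.34 in polymerase ε, and 0.09 in replication protein A and 0.05 in chromatin assembly factor 1. The complexes differ in their number of subunits, from 2 to 6, and a range over more subunits tends to be wider.

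Among the treated samples the third, the one with its own column number, was most often nearest to the controls. It held the highest treated value in 27 of the 42 genes whose treated samples all lay below the controls, and the lowest in 5. Over all 3398 genes of the table with that pattern it was the highest in 51.3%. The samples that share a column number were the highest in 7 and 8 of the 42 genes, and in 23.2% and 25.5% of the 3398. Counting the samples that share a column number as 1 sample left 37 of the 47 genes lower, against 21.4% of all genes in that setting.

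Other genes of DNA replication, listed apart from the 47, were also mostly lower. Of 44 such genes, all above the expression limit, 29 were lower, 2 were higher and 13 did not pass the test, with a median difference of −0.30. Over all genes tested 25.3% were lower and 24.8% were higher. The largest falls among those called were Dscc1, a subunit of the alternative clamp loader, at −0.82 (limma adjusted p = 0.000143), Hells, a chromatin remodeler of dividing cells, at −0.75 (limma adjusted p = 0.000249), Rnaseh2c, a subunit of the ribonuclease that removes RNA from DNA, at −0.71 (limma adjusted p = 0.0154), and Pold4, the small subunit of polymerase δ, at −0.65 (limma adjusted p = 0.000130). Top1, the topoisomerase that relieves torsion ahead of the fork, was higher by 0.31 and Atad5, which unloads PCNA, by 0.48. By role, 12 of 16 genes of fork and elongation, 6 of 8 of licensing turnover, 5 of 7 of histone supply and 6 of 13 of origin firing were lower.

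Genes of nucleotide supply, which feeds the polymerases, and of mitosis, which follows S phase, were also mostly lower. Beside them, 25.3% of all genes tested were lower and 24.8% were higher. Of 22 genes of nucleotide synthesis 20 were lower with a median of −0.56, led by Gart of purine synthesis at −1.07, Dctpp1, a nucleotide pool phosphatase, at −1.01, Cad of pyrimidine synthesis at −0.95 and Shmt1 of folate metabolism at −0.92. Of 25 genes of mitosis 19 were lower and 1, Aurka, was higher, with a median of −0.22, and the largest called differences were those of Espl1 at −0.57, Mki67 at −0.49, Birc5 at −0.46 and Bub1b at −0.42. These medians are set beside the −0.37 of the replication machinery as a description, and the difference between lists was not tested.

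Regulators of the G1 to S transition had calls in both directions. Of all genes tested 25.3% were lower and 24.8% were higher. In neither list below did the share of higher calls exceed that of all genes. Of 13 E2F and pocket protein genes 8 were lower and 1 was higher. E2f2, an activator of S phase genes, had a difference of −0.93, Tfdp2, a dimer partner of E2F proteins, one of −0.91, E2f6, a repressor, one of −0.77 and E2f3, another activator, one of −0.49. E2f8, a repressor, was higher by 0.37. E2f1 had a difference of −0.15 that did not pass the test (limma adjusted p = 0.108). Of 11 cyclins, kinases and inhibitors of S phase above the expression limit 5 were lower and 2 were higher. Ccne2, an E-type cyclin, was at −0.76, Ccna2, the S phase cyclin A, at −0.66 and the kinase Wee1 at −0.65, and Cdkn1a, the p21 inhibitor of cyclin-dependent kinases, was higher by 0.81. In the same comparison Myc had a difference of −2.64 and Ctnnb1, which encodes β-catenin, one of −0.35, and both were lower.

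**Figure D3:**
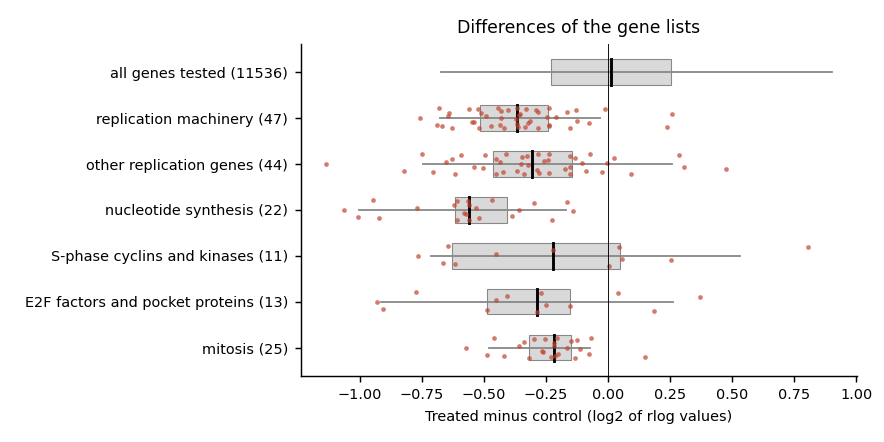
Differences in rlog value (log2 scale, horizontal axis) between samples with LY2090314 and ERT2 control samples. They are given for all genes tested and for each list, with the number of genes in parentheses. Boxes span the 25th to 75th percentile with a bar at the median, lines run from the 5th to the 95th percentile, and dots are single genes of the lists. The box of the replication machinery lies between −0.52 and −0.24, left of zero.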

How the data were processed

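Poly(A) RNA of 3 ERT2 samples and 3 ERT2 samples with LY2090314 was compared. The authors sequenced stranded paired-end libraries and used Salmon, STAR, GRCm38 with GENCODE vM24, and DESeq2 1.30.1. The deposited table holds log2 (rlog) values, for which counts are divided by size factors and genes with few reads shrunk, and the samples that entered the transformation are not given in the sources used here. Of 12 columns, 6 matched these groups by name. The remaining 6 combine Cre and LY in 2 spellings, against 3 samples so labelled, and were not used, so β-catenin deletion was not analysed here.

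Genes with a mean of at least 3 were fitted with limma 3.58.1 in R 4.3.3 (eBayes with a mean-variance trend, Benjamini-Hochberg adjustment over all 11536, threshold 0.05). The procedure was run on simulated data with 200 of 11536 genes changed, far fewer than were called here. In them 8.19% of calls were false, more than the threshold allows. Of changes of 0.5 and of 1, 69% and 88% were recovered. With so few changed genes, this share of false calls cannot be carried over to the calls made here. The exact two-sided permutation test of 3 against 3 samples cannot go below p = 0.10. Genes, lists and tests were chosen with earlier results of these data known. By rule, samples were given for the 8 largest called falls, called rises and 3 smallest differences, and up to 4 genes were named per other list. Further genes were shown by sample after their values were seen. Alternatives were no trend, no limit or a limit of 5 on the mean, centring and quantile normalization. Further ones were leaving out each sample, joining treated samples of 1 column number, and stricter thresholds. One gene of the marker lists is not reported here. Symbols matched 41157 identifiers. Gene positions come from GENCODE vM21 (GRCm38) and promoters from RefSeq.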

Additional observations from a re-analysis of the deposited data

How the results depend on the processing

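Both the call and the sign of 38 of the 47 replication genes were the same in all 12 alternatives other than the stricter thresholds. Pole2 did not pass the test in any of the 12 and changed sign in 2 of them. Leaving out each sample in turn gave 37 to 42 replication genes past the threshold (37 to 42 lower, 0 to 1 higher), 27 to 34 of the other replication genes (25 to 31 lower), 4741 to 6225 genes in all (2337 to 3134 higher), a median difference of −0.39 to −0.35 and 43 to 44 replication genes without overlap in either direction, beside 62.6% to 71.3% of all genes in the same settings (43 genes and 58.6% with all samples). Without the mean-variance trend 38 replication genes were lower and 1 was higher. In that setting 24.5% of all genes tested were lower, and 2825 of the 11536 were higher. The single higher call, Orc5, was lost, leaving 0, without a lower limit on the mean, with median centring, with quantile normalization and at an adjusted p under 0.01. Asking for a difference of at least 1 left 693 genes (478 higher), 0 replication genes in either direction and 0 of the other replication genes. Pole2 ranged from −0.0488 to 0.0196 when samples were left out, with a change of sign to 0.0066 without the third ERT2 sample and to 0.0196 without the first treated one, and the cause was not tested. Centring and quantile normalization moved the median of all genes to −0.01 and −0.04. No paired analysis was possible because the columns hold numbers that differ from those in the titles of the samples. The fit over all 4 groups and the comparison with β-catenin deletion were not run, since the columns could not be matched to groups. Library depth is unknown, and its limits were not assessed.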

Other observations

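Mcm9, a relative of the MCM2-7 subunits that was not among the 47 genes, was at 4.73 and 4.84 in the first and second control samples, at 8.34 in the third and at 4.84, 4.81 and 4.85 in the treated samples. Its difference of −1.14 did not pass the test (limma adjusted p = 0.302). This gene was chosen after its values were seen.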
